A study of Mus musculus with 18 samples.

Results

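Cholesterol metabolism was followed through 33 genes in the substantia nigra and the striatum of mice given 6-hydroxydopamine (6-OHDA), a toxin taken up by dopamine neurons, and TUG469, which activates GPR40, a receptor for long-chain fatty acids. The genes were chosen by symbol from knowledge of the pathway, with earlier results of these data known. They were 19 synthesis enzymes, 5 genes of sterol sensing, 3 of uptake and transport inside cells, 5 of efflux and the liver X receptors, and the turnover enzyme Cyp46a1. All 33 were among the 20897 genes listed for nigra and the 20257 listed for striatum, and all 33 passed the filter on low counts in both tissues. Wild-type mice of the strain C57BL6 formed 3 groups, each with 3 libraries per tissue and thus 18 libraries in all. The group called TUG469 received 4 µg of 6-OHDA into the striatum and TUG469 by intraperitoneal injection at 10 mg/kg per day. The 6-OHDA group received the toxin with intraperitoneal phosphate-buffered saline (PBS), and the PBS group received PBS by both routes. Every group therefore carried an injection into the striatum and intraperitoneal injections, and all tissue is labelled as taken at 3 weeks. The labels do not say whether libraries of a group come from separate mice, so p-values measure the spread between these libraries, which may be technical. Tissue was measured in bulk, so fewer cells of a type and less RNA per cell cannot be told apart.

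Neurons and glia of the brain make their own cholesterol, because lipoproteins of the blood hardly cross the blood-brain barrier, and oligodendrocytes use much of it for myelin. When membrane sterol is low, Scap carries the transcription factors SREBP-1 and SREBP-2 (genes Srebf1 and Srebf2) to the Golgi for activation, and they switch on the synthesis enzymes and Insig1, whose product holds Scap back. Oxysterols activate the liver X receptors (Nr1h2 and Nr1h3), which raise the exporters Abca1 and Abcg1 and the carrier Apoe. Cyp46a1 turns cholesterol of neurons into an oxysterol that can leave the brain.

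Total counts were 51665747 to 61933756 per library in nigra and 42242389 to 61992226 in striatum. In TPM, a unit that corrects for transcript length and library total, the summed level of 8 markers of striatal projection neurons was 216.6 to 344 over the 9 nigra libraries and 5608 to 8897 over the 9 striatum libraries, as the tissue labels state. Dopamine neuron markers did not follow the toxin label in nigra. The dopamine transporter Slc6a3 had 12.3, 16.8 and 11.8 CPM (counts relative to the scaled library total) in the TUG469 libraries, 66.8, 44.6 and 52.5 CPM in the 6-OHDA libraries and 70.1, 53.3 and 49.1 CPM in the PBS libraries. It was lower in all 3 TUG469 libraries than in the other 6, whereas the 6-OHDA and PBS libraries overlapped. The 7 dopamine neuron markers summed to 73.88 to 152.3 TPM in TUG469 libraries, 204.4 to 352 TPM in 6-OHDA libraries and 191 to 236.7 TPM in PBS libraries. The log2 difference of Slc6a3 was -2.08 for TUG469 against PBS (adjusted p = 0.00407) and -0.07 for 6-OHDA against PBS (adjusted p = 0.877; edgeR's quasi-likelihood test with Benjamini-Hochberg adjustment, here and below). Of the 7 dopamine neuron markers, 6 had a log2 difference below 0 for TUG469 against PBS (median -0.71). For 6-OHDA against PBS, 5 of the 7 were above 0 (median 0.52, highest 0.99). Groups are called by their labels throughout. Whether the 6-OHDA and TUG469 labels were exchanged was not tested. If they were, the values given below for TUG469 against PBS would be those of 6-OHDA against PBS and the reverse, so every direction drawn from either label carries this limit.

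Levels between genes were compared in TPM. Apoe, the main lipid carrier made by astrocytes, averaged 2500 TPM over the 9 nigra libraries and 2610 TPM over the 9 striatum libraries and had the highest level of the 33 genes in both tissues. In nigra it was followed by Hmgcs1, the synthase at the entry of the mevalonate pathway, at 181 TPM (157 to 219), and by Cyp46a1 at 127 TPM (99.1 to 150). The range of Hmgcs1 lay above that of Cyp46a1, while Cyp46a1 overlapped its next neighbours, the methylsterol oxidase Msmo1 (95.9 to 130 TPM) and the lipoprotein receptor Lrp1 (85.6 to 142 TPM). In striatum Cyp46a1 took the next place at 286 TPM (242 to 316), with its whole range above that of Hmgcs1 at 105 TPM, whose range was as wide as 65.7 to 148 TPM. Among exporters, Abca1 had 13.3 TPM (10.8 to 20.3) in nigra, and the lowest of the 33 was the liver X receptor Nr1h3 with 4.71 TPM (3.61 to 5.78).

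Promoter windows are shown for Insig1, whose product retains Scap, and the exporter Abca1, the members that passed the test in a treatment comparison. Those of 2 enzymes, Hmgcs1 and Msmo1, are set beside them. Among the members with a window, only Hmgcs1 held the exact string TCACNCCAC, searched as the sterol regulatory element. Variants of this string were not searched. Msmo1 was the enzyme with the smallest p after treatment. Of the 33 genes, 28 had a window of 250 bases before to 50 bases after the start site in RefSeq's GRCm38.p6 annotation. The 5 without a window were Sqle, Fdps, Fdft1, Stard4 and Abcg1. The windows lie at chr5:28071162-28071461 on the plus strand (Insig1), chr13:119690101-119690400 on the plus strand (Hmgcs1), chr8:64733529-64733828 on the minus strand (Msmo1) and chr4:53159846-53160145 on the minus strand (Abca1). They run 5′ to 3′ along the gene, and capitals mark the sterol regulatory element TCACNCCAC and the NF-Y box CCAAT, each on either strand.
Insig1: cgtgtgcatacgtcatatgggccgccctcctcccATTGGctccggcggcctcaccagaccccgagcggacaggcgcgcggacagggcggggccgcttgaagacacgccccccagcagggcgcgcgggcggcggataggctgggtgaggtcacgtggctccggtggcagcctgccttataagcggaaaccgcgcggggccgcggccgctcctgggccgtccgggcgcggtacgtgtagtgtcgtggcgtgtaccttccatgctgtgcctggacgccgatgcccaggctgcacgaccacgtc
Hmgcs1: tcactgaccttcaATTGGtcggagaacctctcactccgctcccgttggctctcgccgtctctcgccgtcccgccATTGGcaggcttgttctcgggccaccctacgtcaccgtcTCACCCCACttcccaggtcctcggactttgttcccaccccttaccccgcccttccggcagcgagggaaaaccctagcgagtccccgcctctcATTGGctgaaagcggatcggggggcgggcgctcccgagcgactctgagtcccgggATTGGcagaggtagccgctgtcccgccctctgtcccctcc
Msmo1: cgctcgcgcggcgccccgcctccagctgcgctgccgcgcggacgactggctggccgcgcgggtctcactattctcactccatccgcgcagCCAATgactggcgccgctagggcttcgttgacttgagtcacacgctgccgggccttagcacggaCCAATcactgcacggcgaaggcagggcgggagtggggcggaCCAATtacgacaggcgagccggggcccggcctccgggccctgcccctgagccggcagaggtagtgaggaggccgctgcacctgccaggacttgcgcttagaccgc
Abca1: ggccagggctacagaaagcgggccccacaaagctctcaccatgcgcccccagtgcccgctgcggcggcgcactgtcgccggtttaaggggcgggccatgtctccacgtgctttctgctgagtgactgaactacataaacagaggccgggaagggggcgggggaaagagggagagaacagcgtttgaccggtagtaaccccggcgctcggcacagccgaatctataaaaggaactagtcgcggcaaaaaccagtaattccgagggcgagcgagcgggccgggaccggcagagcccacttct
The Hmgcs1 window held the sterol regulatory element from base -137 relative to the start site and 4 NF-Y boxes. The Insig1 window held 1 NF-Y box, the Msmo1 window 3, and the Abca1 window none. On either strand, CCAAT stood in the windows of 15 of 16 synthesis enzymes with a window (93.8%) and of 0 of 4 efflux and liver X receptor genes, against 41.1% of all 27025 genes with a window. The GC box GGGCGG stood in 15 of 16 and 1 of 4 of them, against 38.2% of all genes, and TCACNCCAC in 1 of the 28 members with a window, against 1.44% of all genes. No marked motifs overlapped in these windows, a match is a description and not a site, and a gene with several start sites counts once.

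In PBS mice the synthesis enzymes were higher in nigra than in striatum. Of 19 enzymes, 15 were past the threshold of an adjusted p of 0.05 and all 15 were higher in nigra, with a median log2 difference of 0.51 over the 19 against 0.01 over all 18749 genes tested. Squalene epoxidase, Sqle, had 54.8, 50.2 and 56.6 CPM in the nigra libraries, against 25.9, 18 and 31.2 CPM in the striatum libraries. These groups did not overlap, and the log2 difference was 1.10 ± 0.17 (SE), a 2.15-fold higher level (adjusted p = 4.04e-05). Hmgcs1 had 212, 199 and 242 CPM in nigra, against 131, 108 and 174 CPM in striatum, again with no overlap, and was higher by 0.66 ± 0.17 on the log2 scale (adjusted p = 0.00325). Enzymes before and after squalene were also higher in nigra. The sterol desaturase Sc5d had 96.3, 93.4 and 99.7 CPM in nigra, against 55.1, 46.5 and 63 CPM in striatum (log2 difference 0.81, adjusted p = 5.53e-06). The lanosterol demethylase Cyp51 had 65.8, 61 and 78.3 CPM in nigra, against 35, 36.3 and 45.7 CPM in striatum (log2 difference 0.81, adjusted p = 0.000172). Pmvk, phosphomevalonate kinase, had 36.7, 31.8 and 36.5 CPM in nigra, against 20, 21.2 and 22.5 CPM in striatum (log2 difference 0.72, adjusted p = 1.57e-05). None of these enzymes overlapped between the tissues, as was the case for 14 of the 19 enzymes, 23 of the 33 genes and 61.1% of all genes. Lbr, a sterol reductase of the nuclear envelope, had 18.1, 18 and 17.8 CPM in nigra, against 11.7, 12.2 and 10.9 CPM in striatum (log2 difference 0.64, adjusted p = 6.29e-05). Nsdhl, which helps remove the methyl groups of lanosterol, had 22.8, 18.6 and 24.8 CPM in nigra, against 13.5, 13.7 and 17.3 CPM in striatum (log2 difference 0.57, adjusted p = 0.000815). The enzymes short of the threshold were Mvk, Mvd, Ebp and squalene synthase, Fdft1. By counts Fdft1 had a log2 difference of -0.17 and was the only enzyme below 0. This direction depended on the measure. In TPM, scaled in each tissue by itself, Fdft1 had 49, 54.2 and 54.5 in the PBS libraries of nigra. The PBS libraries of striatum had 40.4, 42.8 and 34.2 TPM.

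The other branches were split between the tissues. Of the 33 genes, 18 were higher in nigra and 4 lower past the threshold, against a background of 28.5% and 27.3% of all genes (55.8% in either direction), and 24 had an unadjusted p under 0.05, against 60.4% of all genes. Insig1 was higher in nigra, with 70.1, 74.5 and 64.9 CPM, against 39.1, 39.9 and 36.1 CPM in striatum. The groups did not overlap, and the log2 difference was 0.86 ± 0.11 (1.82-fold, adjusted p = 3.68e-06). Stard4, a carrier of cholesterol between membranes, had 35.2, 31.3 and 31.1 CPM in nigra, against 20.4, 16.4 and 18.5 CPM in striatum (log2 difference 0.82, adjusted p = 2.84e-06), and Lrp1 was higher by 0.44 (adjusted p = 0.00284). The 4 genes lower in nigra were Cyp46a1, Apoe, Abcg1 and Srebf2. Cyp46a1 had 113, 98.3 and 121 CPM in nigra, against 294, 287 and 254 CPM in striatum, groups that lay far apart. Its log2 difference was -1.33 ± 0.13, or 0.399-fold (adjusted p = 2.92e-07). Apoe had 1220, 1220 and 1140 CPM in nigra, against 1620, 1770 and 1410 CPM in striatum, and its log2 difference was -0.42 ± 0.09 (adjusted p = 0.000742). The exporter Abcg1 had 81.9, 74.3 and 79.8 CPM in nigra, against 117, 117 and 94.3 CPM in striatum (log2 difference -0.48, adjusted p = 0.000909). Srebf2 had 176, 167 and 168 CPM in nigra, against 222, 191 and 208 CPM in striatum (log2 difference -0.28, adjusted p = 0.00355). For Apoe, Abcg1 and Srebf2 the call was lost with limma on log2(TPM + 1), which changes the scaling and the test together. There the median of all genes lay at 0.22, with 76.6% of called genes higher in nigra, in place of 0.01 and 51.1%. Against that shift Apoe stood at -0.13 (limma's adjusted p = 0.282), Abcg1 at -0.18 (adjusted p = 0.126) and Srebf2 at 0.01 (adjusted p = 0.936). Cell markers moved too: 8 of 10 markers of myelinating oligodendrocytes and 7 of 9 of astrocytes were above 0 in nigra, with medians of 0.24 and 0.76, and all 8 microglial markers were lower with a median of -0.80. Their part in the result was not tested.

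**Figure D1:**
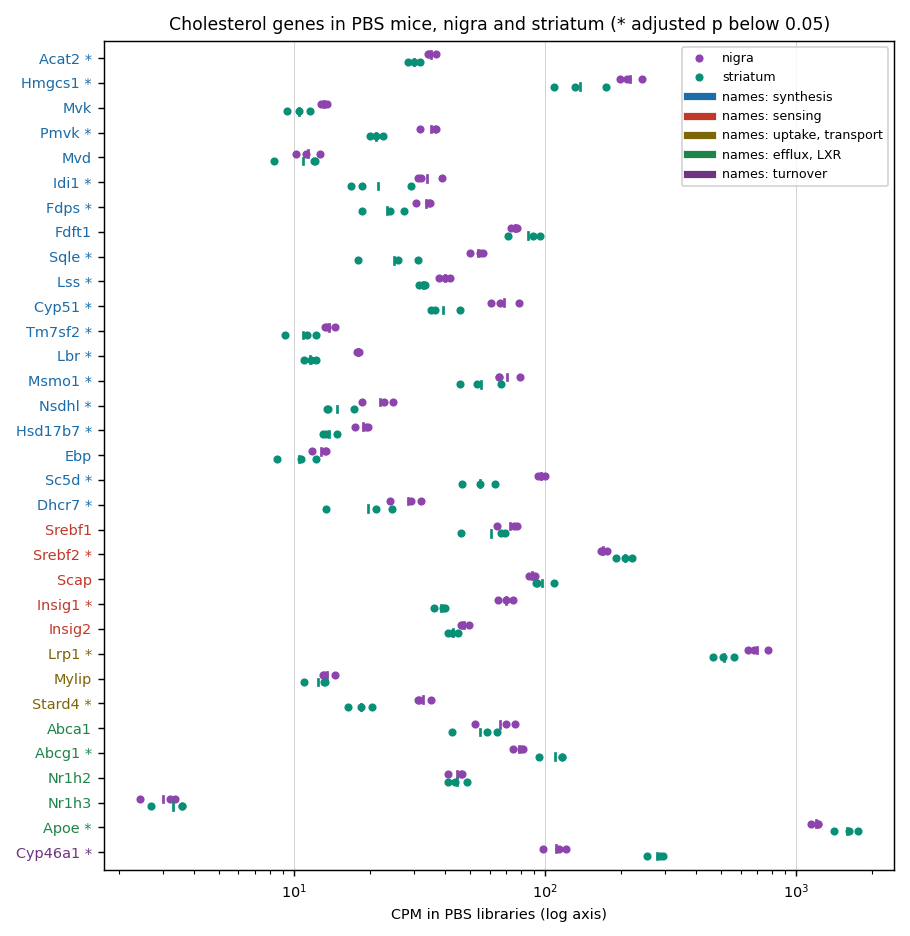
CPM (log axis) of the 33 genes in the 3 nigra and 3 striatum libraries of PBS mice, with points for libraries, ticks for means and an asterisk for an adjusted p below 0.05. Of the 19 synthesis enzymes, 15 are marked, all higher in nigra, and Cyp46a1 shows the widest gap the other way.

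Across all treatments, 8 of the 33 genes (24.2%) were above every striatum library in all 9 nigra libraries, against 18% of all genes, and 3 (9.09%) were below, against 18.2%. The 8 were Pmvk, Idi1, Sqle, Cyp51, Lbr, Sc5d, Insig1 and Stard4. Sqle spanned 50.2 to 63.1 CPM over the 9 nigra libraries and 18 to 45.6 CPM over the 9 striatum libraries, and Sc5d 93.4 to 102 CPM in nigra and 46.5 to 69.9 CPM in striatum. Cyp51 spanned 61 to 88.4 CPM in nigra and 34.7 to 56.2 CPM in striatum, Pmvk 31.7 to 41.9 CPM in nigra and 19.9 to 23.8 CPM in striatum, and Lbr 16.7 to 19.3 CPM in nigra and 10.6 to 14.8 CPM in striatum. No library of any treatment bridged these gaps. The 3 below were Scap, Abcg1 and Cyp46a1, the last with 83.9 to 125 CPM in nigra and 230 to 301 CPM in striatum. For Scap the gap was narrow, with at most 91.3 CPM in nigra and at least 91.9 CPM in striatum. In TPM the tissues overlapped for Scap (45.7 to 57.9 in nigra, 46.8 to 60.7 in striatum). They also overlapped in TPM for Abcg1 (32 to 37.9 in nigra, 34.1 to 47 in striatum), but not for Cyp46a1.

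In nigra the synthesis enzymes of TUG469 mice stood above those of PBS mice, but no enzyme passed the threshold alone. Of the 19 enzymes, 18 had a log2 difference above 0, the median was 0.23 against 0.01 over all genes, and in 13 the groups did not overlap. All members together gave 16 of 33 groups without overlap, against 24% of all genes, and 1 higher and 1 lower past the threshold, against 0.401% and 1.45% of all genes (1.85% in either direction). At an unadjusted p under 0.05 the members numbered 15 of 33, against 19.7% of all genes. The methylsterol oxidase Msmo1 had 92.2, 90.6 and 98.2 CPM in TUG469 libraries, against 69.4, 69.2 and 83.4 CPM in PBS libraries. Every TUG469 library lay above every PBS library, at a log2 difference of 0.34 ± 0.07 (adjusted p = 0.0505). Dhcr7, the reductase of the last step to cholesterol, had 43.8, 40.2 and 39.9 CPM in TUG469 libraries, against 30.8, 25.4 and 33.8 CPM in PBS libraries (0.46 ± 0.10, adjusted p = 0.0506), also without overlap. Hmgcs1 had 272, 270 and 311 CPM in TUG469 libraries, against 224, 210 and 256 CPM in PBS libraries (0.31 ± 0.08, adjusted p = 0.0774). Sqle had 66.2, 63.5 and 67.3 CPM in TUG469 libraries, against 57.9, 52.8 and 59.6 CPM in PBS libraries, with a log2 difference of 0.21 (adjusted p = 0.153). Lss, lanosterol synthase, had 44.4, 50.5 and 52.6 CPM in TUG469 libraries, against 42.1, 44.1 and 39.9 CPM in PBS libraries, at a log2 difference of 0.23 (adjusted p = 0.13). Nsdhl had 26.7, 28.4 and 29.1 CPM in TUG469 libraries, against 24.1, 19.6 and 26.2 CPM in PBS libraries, at 0.27 (adjusted p = 0.171), and neither gene overlapped. Lbr was the only enzyme below 0, at -0.01.

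The gene that rose was Insig1 (NCBI Gene 231070, chr5:28071412-28078662). It had 104, 104 and 103 CPM in TUG469 libraries, 91.6, 83.4 and 92.3 CPM in 6-OHDA libraries and 73.9, 78.4 and 68.4 CPM in PBS libraries. The 3 groups did not overlap, with means of 104 ± 0.52 CPM, 89.1 ± 4.95 CPM and 73.6 ± 5.01 CPM (SD, n = 3 each). TUG469 against PBS gave a log2 fold change of 0.49 ± 0.06, or 1.41-fold (adjusted p = 0.0150). The call was lost without TUG469 library 2 (0.49, adjusted p = 0.0713) or PBS library 1 (0.50, adjusted p = 0.0852). It was also lost when replicate numbers entered the fit as a block (0.45, adjusted p = 0.0682).

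The exporter Abca1 (NCBI Gene 11303, chr4:53030789-53159988) fell. It had 45.6, 47.4 and 51.9 CPM in TUG469 libraries, 44.7, 45.5 and 45.6 CPM in 6-OHDA libraries and 73.9, 80 and 55.6 CPM in PBS libraries. All 6 TUG469 and 6-OHDA libraries lay below every PBS library, and PBS library 3 stood nearest to them. TUG469 against PBS gave a log2 fold change of -0.53 ± 0.11, or 0.692-fold (adjusted p = 0.0489). This call sat at the threshold. It was lost when any library other than PBS 3 was left out, with log2 values of -0.58 to -0.42 and adjusted p of 0.0547 (TUG469 4), 0.0689 (6-OHDA 3), 0.0743 (6-OHDA 2), 0.0789 (6-OHDA 4), 0.100 (PBS 2), 0.138 (TUG469 1), 0.175 (TUG469 2) and 0.199 (PBS 1). Without PBS 3 it was -0.67 (adjusted p = 0.00395), and the number of the 33 genes past the threshold ranged over 0 without PBS 1 or TUG469 2, 1 without PBS 2, 6-OHDA 2, 6-OHDA 4, TUG469 1 or TUG469 4, 2 without 6-OHDA 3, and 5 without PBS 3, against 2 with all libraries.

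Among sensing, uptake, efflux and turnover genes, no further member passed the test in nigra. Abcg1 had 82.1, 80.6 and 82.7 CPM in TUG469 libraries, 80.5, 80.1 and 76.5 CPM in 6-OHDA libraries and 86.4, 78.2 and 84.1 CPM in PBS libraries. Apoe had 1210, 1400 and 1330 CPM in TUG469 libraries, 1360, 1170 and 1270 CPM in 6-OHDA libraries and 1280, 1280 and 1200 CPM in PBS libraries. For Abcg1 the TUG469 libraries lay just above the 6-OHDA libraries, and both groups overlapped the PBS libraries. For Apoe the 3 groups overlapped. The log2 differences of TUG469 against PBS were -0.02 for Abcg1 and 0.07 for Apoe. Srebf2 had 200, 188 and 177 CPM in TUG469 libraries, 205, 177 and 188 CPM in 6-OHDA libraries and 186, 176 and 177 CPM in PBS libraries, a log2 difference of 0.07 for TUG469 against PBS. Srebf1 had 84.7, 86.8 and 82.5 CPM in TUG469 libraries, 79.1, 66.8 and 65.5 CPM in 6-OHDA libraries and 79.2, 81.5 and 67.8 CPM in PBS libraries. TUG469 libraries were thus highest for Srebf1, and its log2 difference was 0.27 against 6-OHDA (adjusted p = 0.535) and 0.15 against PBS. Cyp46a1 had 101, 112 and 134 CPM in TUG469 libraries, 89.4, 115 and 88.4 CPM in 6-OHDA libraries and 120, 103 and 128 CPM in PBS libraries, which overlapped. Lrp1 had 687, 664 and 521 CPM in TUG469 libraries, 732, 618 and 611 CPM in 6-OHDA libraries and 715, 810 and 679 CPM in PBS libraries, with overlap (-0.24 for TUG469 against PBS, adjusted p = 0.285). Stard4 had 38, 36.6 and 37.4 CPM in TUG469 libraries, 34.3, 31.9 and 36.6 CPM in 6-OHDA libraries and 37.2, 32.9 and 32.8 CPM in PBS libraries (0.12 against PBS, adjusted p = 0.367).

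Markers of several cell types shifted in the same nigra comparison. All 10 markers of myelinating oligodendrocytes had a difference above 0 in TUG469 against PBS (median 0.29), and Opalin (1.32) and Aspa (0.60) passed the threshold. Their summed level was 12580 to 16780 TPM in TUG469 libraries, 13550 to 15210 TPM in 6-OHDA libraries and 11900 to 14140 TPM in PBS libraries. Of 9 astrocyte markers, 7 were below 0 (median -0.22) and Gjb6 (-0.62) and Slc4a4 (-0.33) passed, with a summed level of 1368 to 1451 TPM in TUG469 libraries, 1430 to 1514 TPM in 6-OHDA libraries and 1681 to 1812 TPM in PBS libraries. All 6 ependymal markers were below 0 (median -0.61, summed level 37.81 to 71.11 TPM in TUG469 libraries, 31.63 to 67.37 TPM in 6-OHDA libraries and 59.94 to 77.95 TPM in PBS libraries). Of 5 markers of oligodendrocyte precursors 3 were below 0 (median -0.21) and Ptprz1 passed (-0.29, adjusted p = 0.0367), at a summed level of 355.4 to 368.1 TPM in TUG469 libraries, 367.4 to 383.9 TPM in 6-OHDA libraries and 363 to 371.1 TPM in PBS libraries. Of 7 markers of newly formed oligodendrocytes 3 were below 0 (median 0.13), and 1 passed as lower. Of 6 markers of neurons in general 2 were below 0 (median 0.12), and 1 passed as lower. Longer transcripts had lower log2 differences (Spearman rho across 19686 genes, which are not independent, of -0.34), and with that trend removed Abca1 stood at -0.37 (adjusted p = 0.182). The part of the markers in these results was not tested.

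**Figure D2:**
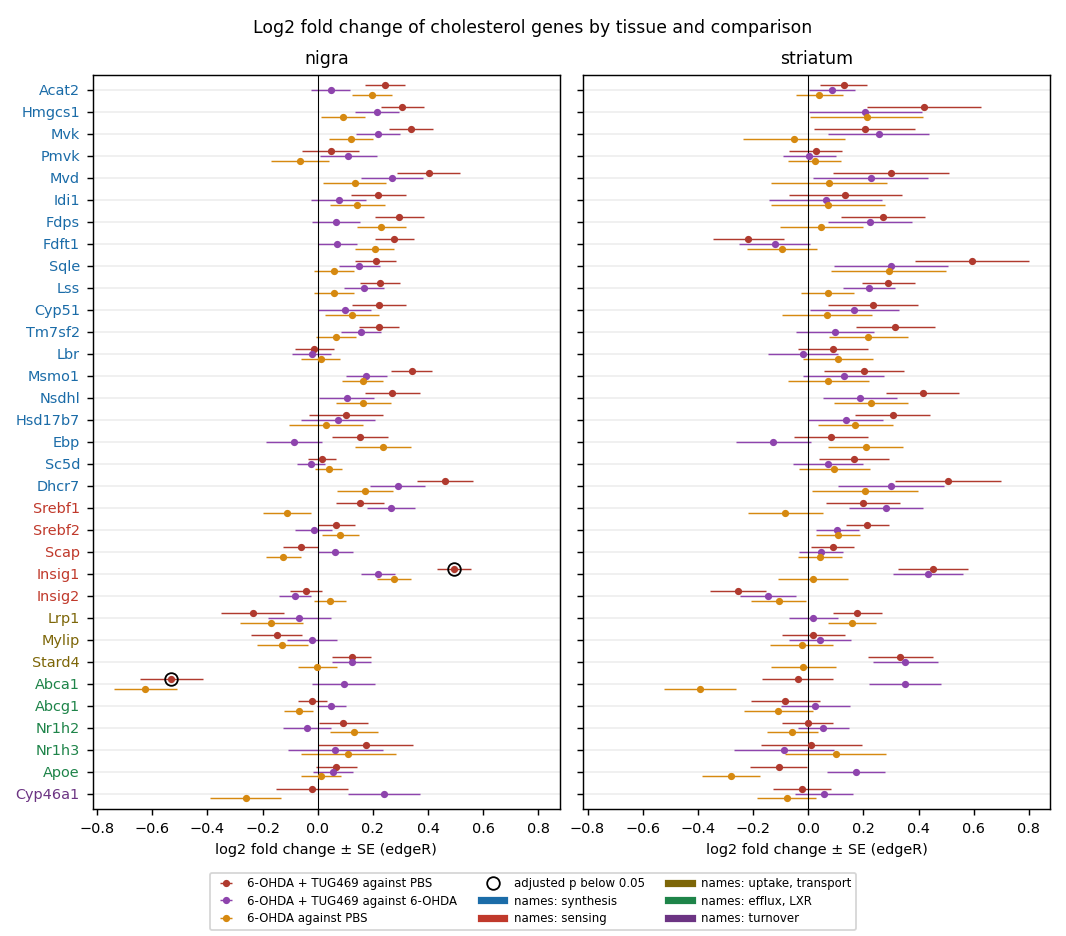
Log2 fold change ± SE (edgeR) of the 33 genes for TUG469 against PBS, TUG469 against 6-OHDA and 6-OHDA against PBS, nigra on the left and striatum on the right, with circles for an adjusted p below 0.05. The circled values are Insig1 at 0.49 and Abca1 at -0.53, both for TUG469 against PBS in nigra.

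The other nigra comparisons share libraries with this one, so their values are given side by side and not as support. For TUG469 against 6-OHDA, 16 of 19 enzymes were above 0 with a median of 0.10 (0.003 over all genes), 11 of the 33 genes did not overlap against 14.4% of all genes, and none passed the threshold, against 0.00508% of all genes. For 6-OHDA against PBS, 18 of 19 enzymes were above 0 with a median of 0.12 (-0.002 over all genes), 2 of the 33 genes did not overlap against 20% of all genes, and again none passed, against 0.00508%. By edgeR 8 of the 33 had an unadjusted p under 0.05 for TUG469 against 6-OHDA, against 8.2% of all genes, and DESeq2 and limma called 0. For 6-OHDA against PBS the number was 6, against 14.3% of all genes, limma called 0 and DESeq2 called 2, Abca1 and Insig1, which were also the 2 without overlap. Without TUG469 library 4 the median for TUG469 against 6-OHDA was 0.07 and without 6-OHDA library 4 it was 0.16, and without PBS library 2 that for 6-OHDA against PBS was 0.07. By edgeR Abca1 had a log2 difference of -0.62 ± 0.11 for 6-OHDA against PBS (adjusted p = 0.170), and Insig1 one of 0.28 ± 0.06 (adjusted p = 0.170). With 1 library left out at a time, Abca1 passed by edgeR only without PBS library 3 (-0.77, adjusted p = 0.00807). Longer transcripts had lower log2 differences for 6-OHDA against PBS too (Spearman rho of -0.33 across 19686 genes, which are not independent). Fdft1 had 96.8, 95.3 and 97.9 CPM in TUG469 libraries, 96.1, 81.1 and 98.9 CPM in 6-OHDA libraries and 81.6, 77.1 and 80.5 CPM in PBS libraries, with a difference of 0.21 for 6-OHDA against PBS (adjusted p = 0.263). TUG469 against 6-OHDA gave 0.22 for Insig1 (adjusted p = 0.434), 0.29 for Dhcr7 (adjusted p = 0.549) and 0.09 for Abca1.

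In striatum no member passed the threshold in any of the 3 comparisons, in which at most 0.00523% of all genes did (0.00523% for TUG469 against 6-OHDA, 0% for TUG469 against PBS and 0% for 6-OHDA against PBS). By edgeR an unadjusted p under 0.05 was reached by 4 of the 33 genes for TUG469 against 6-OHDA (7.49% of all genes), 9 for TUG469 against PBS (12.5%) and 2 for 6-OHDA against PBS (7.5%), and DESeq2 and limma called 0 members. For TUG469 against PBS 18 of 19 enzymes were above 0 with a median of 0.24 (0.002 over all genes), and 7 of 33 genes did not overlap, against 18.5% of all genes. That median was 0.09 without TUG469 library 4, 0.13 without PBS library 2 and 0.37 without PBS library 3. For TUG469 against 6-OHDA 16 of 19 enzymes were above 0 (median 0.14), and 6 of the 33 did not overlap against 14.9% of all genes. Without TUG469 library 4 that median was 0.01, without 6-OHDA library 4 it was 0.08, and without TUG469 library 2 it was 0.23. For 6-OHDA against PBS the count was 17 of 19 (median 0.07), and 2 of the 33 did not overlap against 11.8% of all genes. Without PBS library 2 the count was 11 and the median 0.02, and the median was 0.21 without PBS library 3 and 0.16 without 6-OHDA library 4.

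Insig1 again stood highest in striatum after TUG469. It had 47.3, 43.6 and 58.1 CPM in TUG469 libraries, 41.6, 37.6 and 31 CPM in 6-OHDA libraries and 37.1, 37.7 and 34.2 CPM in PBS libraries. The TUG469 libraries did not overlap the other 6, and the log2 difference was 0.45 ± 0.13 against PBS (adjusted p = 0.242) and 0.43 ± 0.13 against 6-OHDA (adjusted p = 0.572). Sqle had 36, 28.1 and 43.2 CPM in TUG469 libraries, 31.3, 31.5 and 24.4 CPM in 6-OHDA libraries and 24.5, 17 and 29.5 CPM in PBS libraries, which overlapped (0.59 against PBS, adjusted p = 0.303). Hmgcs1 had 179, 137 and 206 CPM in TUG469 libraries, 173, 161 and 119 CPM in 6-OHDA libraries and 124, 102 and 165 CPM in PBS libraries, with overlap. Nsdhl had 17.6, 17.3 and 21.4 CPM in TUG469 libraries, 15.7, 18.5 and 15.2 CPM in 6-OHDA libraries and 12.8, 13 and 16.4 CPM in PBS libraries. TUG469 lay above PBS throughout for Nsdhl (0.41, adjusted p = 0.283). Lss had 37.8, 34.1 and 41.1 CPM in TUG469 libraries, 34.2, 34.4 and 28.5 CPM in 6-OHDA libraries and 31.3, 31.3 and 29.8 CPM in PBS libraries (0.29 against PBS, adjusted p = 0.287). Stard4 had 21.4, 19.7 and 24.9 CPM in TUG469 libraries, 16.3, 18.8 and 16.6 CPM in 6-OHDA libraries and 19.3, 15.4 and 17.5 CPM in PBS libraries (0.35 against 6-OHDA, adjusted p = 0.584). For both genes every TUG469 library lay above every PBS library, and for Stard4 above every 6-OHDA library too. Dhcr7 had 25.5, 24.1 and 30.1 CPM in TUG469 libraries, 21.7, 23.5 and 19.4 CPM in 6-OHDA libraries and 20.1, 12.6 and 23.3 CPM in PBS libraries, with TUG469 above both (0.51 against PBS, adjusted p = 0.334). Msmo1 had 55.7, 53.4 and 71.8 CPM in TUG469 libraries, 56.1, 58.1 and 51.3 CPM in 6-OHDA libraries and 50.7, 43.3 and 63.3 CPM in PBS libraries, which overlapped. Fdft1, by counts the only enzyme below 0 against PBS (-0.22), had 65.3, 60.5 and 82.4 CPM in TUG469 libraries, 73.3, 76.8 and 76.4 CPM in 6-OHDA libraries and 84.7, 90 and 67.4 CPM in PBS libraries. In TPM the order of Fdft1 differed, with means of 40.2 in TUG469 libraries, 46.5 in 6-OHDA libraries and 39.1 in PBS libraries.

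The exporter side of striatum differed in order. Abca1 had 49.1, 51.8 and 51.4 CPM in TUG469 libraries, 42.9, 37 and 39.4 CPM in 6-OHDA libraries and 55.7, 60.6 and 40.2 CPM in PBS libraries. TUG469 lay above 6-OHDA throughout (log2 difference 0.35, adjusted p = 0.603) and between the PBS libraries (-0.04). The 6-OHDA libraries overlapped PBS library 3 (-0.39, adjusted p = 0.513). Apoe had 1440, 1420 and 1340 CPM in TUG469 libraries, 1320, 1300 and 1120 CPM in 6-OHDA libraries and 1530, 1670 and 1340 CPM in PBS libraries. The 6-OHDA libraries lay below both other groups for Apoe, at -0.28 against PBS (adjusted p = 0.574). Lrp1 had 589, 534 and 530 CPM in TUG469 libraries, 548, 523 and 562 CPM in 6-OHDA libraries and 536, 441 and 485 CPM in PBS libraries, with overlap and a difference of 0.16 for 6-OHDA against PBS (adjusted p = 0.756). Abcg1 had 98.6, 104 and 90.7 CPM in TUG469 libraries, 81.6, 93.3 and 113 CPM in 6-OHDA libraries and 111, 110 and 89.3 CPM in PBS libraries. Srebf2 had 235, 211 and 237 CPM in TUG469 libraries, 206, 216 and 213 CPM in 6-OHDA libraries and 211, 180 and 197 CPM in PBS libraries. Cyp46a1 had 277, 260 and 242 CPM in TUG469 libraries, 217, 248 and 283 CPM in 6-OHDA libraries and 278, 271 and 241 CPM in PBS libraries. The 3 groups overlapped for Abcg1, Srebf2 and Cyp46a1. Srebf1 had 64.9, 64.9 and 67.3 CPM in TUG469 libraries, 59.1, 53.6 and 49.5 CPM in 6-OHDA libraries and 63.2, 65.1 and 43.6 CPM in PBS libraries, with TUG469 above 6-OHDA throughout (0.28, adjusted p = 0.682). Beside these values, all 6 ependymal markers were above 0 in striatum for TUG469 against PBS (median 1.13) and for 6-OHDA against PBS (median 1.71), with summed levels of 29.13 to 52.55 TPM in TUG469 libraries, 47.19 to 56.83 TPM in 6-OHDA libraries and 12.65 to 27.81 TPM in PBS libraries. For TUG469 against 6-OHDA all 8 microglial markers (median 0.24) and all 7 endothelial and mural markers (0.31) were above 0, and all 6 ependymal markers were below (-0.54). Microglial markers summed to 518.2 to 598 TPM in TUG469 libraries, 450.5 to 537.2 TPM in 6-OHDA libraries and 414 to 529.1 TPM in PBS libraries, and endothelial and mural markers to 212.4 to 227.2 TPM in TUG469 libraries, 169 to 187.8 TPM in 6-OHDA libraries and 171.8 to 200.8 TPM in PBS libraries. The 4 choroid plexus markers summed to 13.31 to 30.3 TPM in TUG469 libraries. They summed to 3250 TPM in 6-OHDA library 2 alone, against 28.17 and 34.04 TPM in 6-OHDA libraries 3 and 4. PBS libraries 1, 2 and 3 had 291.4, 28.17 and 17.67 TPM of these markers. Their part in the result was not tested.

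**Figure D3:**
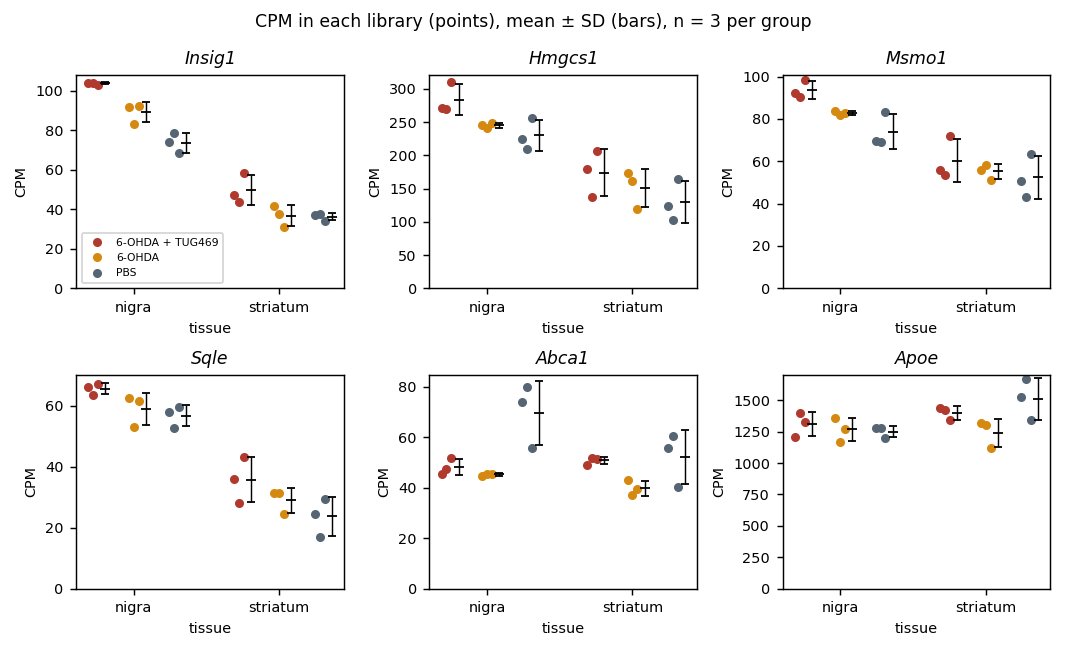
CPM of Insig1, Hmgcs1, Msmo1, Sqle, Abca1 and Apoe in each library, with mean ± SD bars (n = 3), for TUG469, 6-OHDA and PBS in nigra and striatum. In nigra the Insig1 points of the 3 groups do not overlap, and the Abca1 points of PBS mice lie above the 6 others.

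Whether treatment acted differently in the tissues was tested in the joint fit. No member passed for the 6-OHDA effect in nigra minus that in striatum, against 0.155% of all genes (0.0907% higher and 0.064% lower), nor for the same difference of the TUG469 effect (TUG469 against 6-OHDA), against 0% of all genes. By edgeR 2 and 0 of the 33 had an unadjusted p under 0.05, against 12.2% and 3.73% of all genes, and DESeq2 and limma called 0. The 2 were Apoe (0.29 ± 0.13, adjusted p = 0.359) and Lrp1 (-0.33 ± 0.15, adjusted p = 0.404). Longer transcripts had lower values for the 6-OHDA effect in nigra minus that in striatum (Spearman rho of -0.36 across 18749 genes, which are not independent). For the 6-OHDA effect the difference was 0.26 ± 0.15 for Insig1 (adjusted p = 0.516) and -0.24 ± 0.19 for Abca1 (adjusted p = 0.664). For the TUG469 effect it was -0.22 ± 0.15 for Insig1 and -0.26 ± 0.19 for Abca1 (adjusted p = 1.00 each).

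Single libraries held many of the extreme values of the enzymes. In striatum TUG469 library 4 had the highest CPM of 15 of 19 enzymes, against 9.31% of all genes, and PBS library 2 the lowest of 10, against 16.1%. In nigra TUG469 library 4 was highest for 12 enzymes, against 14% of all genes, and PBS library 2 lowest for 14, against 13.2%. The mean log2 level of the enzymes relative to the PBS mean in nigra was 0.19, 0.18 and 0.32 in TUG469 libraries, 0.15, 0.03 and 0.16 in 6-OHDA libraries and 0.00, -0.08 and 0.08 in PBS libraries. TUG469 libraries lay above all others. Myelin markers were also highest in TUG469 library 4, at 0.59 in nigra and 0.31 in striatum, and their part in the result was not tested.

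**Figure D4:**
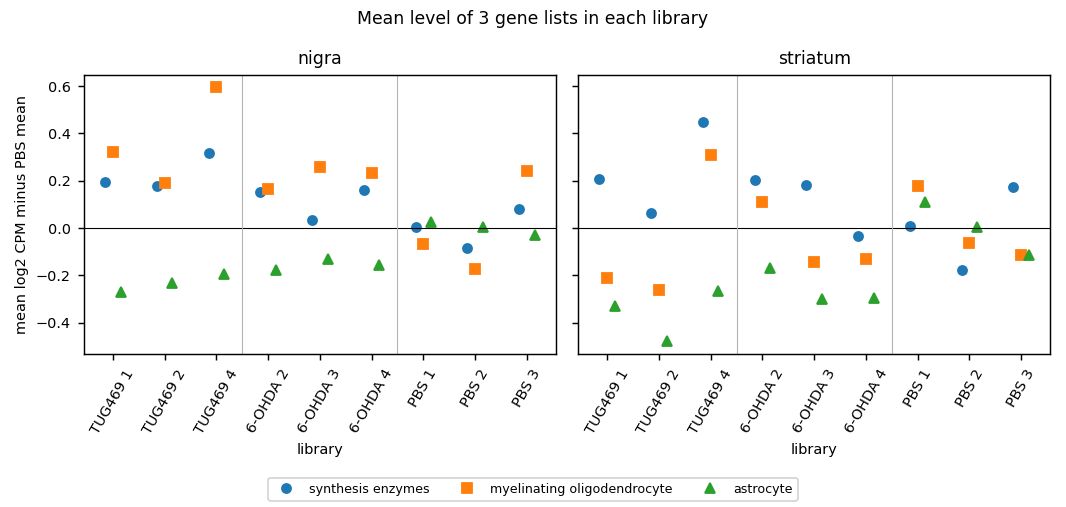
Mean log2 CPM relative to the mean of PBS libraries for the 19 synthesis enzymes, the 10 myelin markers and the 9 astrocyte markers in each library, by tissue. TUG469 library 4 is highest for enzymes and myelin markers in both tissues. For astrocyte markers the means of TUG469 and 6-OHDA libraries lie below those of PBS in both tissues. In striatum the median astrocyte marker stood at only -0.05 for 6-OHDA against PBS (lowest -1.92, 4 of 9 above 0). For TUG469 against PBS it stood at -0.07 (lowest -2.22, 3 of 9 above 0). The summed astrocyte levels of the 3 groups overlapped in striatum.

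A further 48 genes around the pathway, from isoprenoid synthesis to fatty acid synthesis under SREBP-1, were taken as a list. Within the tissues 2 of the 48 passed the threshold, both lower in TUG469 than in PBS nigra (1.45% of all genes were lower), where 17 of 48 were above 0 and the median was -0.06. Soat1, which esterifies cholesterol for storage, had 23.2, 23 and 23.4 CPM in TUG469 libraries, 27, 26.9 and 24.7 CPM in 6-OHDA libraries and 31.4, 28.7 and 31 CPM in PBS libraries. The 3 groups did not overlap, and the log2 fold change was -0.39 ± 0.06 (adjusted p = 0.0238). The call was lost without PBS 1 (adjusted p = 0.129), TUG469 1 (0.0664) or TUG469 2 (0.114). Acaca, the carboxylase at the start of fatty acid synthesis, had 109, 101 and 102 CPM in TUG469 libraries, 118, 102 and 111 CPM in 6-OHDA libraries and 133, 139 and 120 CPM in PBS libraries. PBS lay above both other groups, and the log2 fold change was -0.33 ± 0.07 (adjusted p = 0.0489). That call was lost without any library other than PBS 3 (adjusted p from 0.0523 without 6-OHDA 3 to 0.195 without PBS 1), and with the length trend removed Acaca stood at -0.17 (adjusted p = 0.373). Between tissues in PBS mice 25 of the 48 were higher and 13 lower in nigra, against 28.5% and 27.3% of all genes, so the lower share was near the background. The median was 0.23, and the fatty acid genes under SREBP-1 had 7 of 10 higher and a median of 0.71.

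The authors' deposited table held members past an adjusted p of 0.05 in nigra only. Of the 20897 genes listed for nigra it held 1505 past that threshold for TUG469 against PBS, 10 of the 33 among them. Insig1 had a fold change of 1.41 and Abca1 one of -1.44 in the authors' deposited table, where a minus sign marks a fold lower. The other 8 in the authors' deposited table were Dhcr7, Mvd, Msmo1, Mvk, Hmgcs1, Fdps, Fdft1 and Acat2, all enzymes with folds of 1.19 to 1.38. For 6-OHDA against PBS the authors' deposited table held 2 of 430, Abca1 at -1.54 and Insig1 at 1.21, and for TUG469 against 6-OHDA 0 of 91. The striatum comparisons of the authors' deposited table held 0 members among 63 genes for TUG469 against 6-OHDA, 318 for TUG469 against PBS and 173 for 6-OHDA against PBS.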

How the data were processed

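RNA sequencing covered 18 mouse libraries, 9 each from nigra and striatum. The submitters' processing notes name STAR 2.7.3a, Cufflinks, the build GRCm38, and Trim Galore 0.38 beside FastQC 0.11.7. Libraries were stranded and poly(A)-selected, per the labels' protocols. Not given in the sources used here are the strand setting of the counting and the test behind the deposited comparisons. The deposited tables hold, per the file headers, raw counts per gene, FPKM and TPM (both scaled for length and depth by the authors), and normalized log2 values. Comparisons between groups were deposited by the authors as a signed fold ratio, a log2 standard error, a test score and p-values. Genes with a count of 0 in any library of a tissue are absent from that tissue's table, and 0 columns belonged to another series.

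Counts were tested with edgeR's quasi-likelihood test (edgeR 4.0.16, R 4.3.3; filterByExpr, minimum count 10 and total 15; TMM factors; Benjamini-Hochberg over all genes tested, threshold 0.05), with 1 fit of 9 libraries per tissue and 1 of 18 for contrasts between tissues. This left 19686 genes in nigra, 19115 in striatum and 18749 in the joint fit, and the procedure was tested on simulated counts. CPM are counts scaled with the TMM factors of the fit, and SD is over the 3 libraries of a group. TPM served to compare levels between genes, and each tissue's table was scaled by itself. Alternatives were DESeq2 1.42.0, RLE factors, no filter, limma 3.58.1 on log2(TPM + 1), a fit of the compared groups only, the replicate number as a block, removal of the trend with transcript length, and leaving out each library. Libraries of a tissue were all distinct (highest correlation of log2 values 0.992 in nigra and 0.993 in striatum).

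The members, the further list and the marker lists were chosen with earlier results of these data known. Values in every library are given for members past the threshold (up to the 10 with the smallest p in a comparison), for the 3 with the smallest p in each comparison within a tissue, and for Srebf2, Srebf1, Hmgcs1, Sqle, Insig1, Abca1, Abcg1, Apoe and Cyp46a1. Other genes are given as examples chosen after their values were seen.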

Additional observations from a re-analysis of the deposited data

How the results depend on the processing

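For TUG469 against PBS in nigra, the number of the 33 genes past the threshold was 2 in the reported fit, 2 with RLE factors, 10 with DESeq2 (which called 1560 genes in all, against 364), 1 without the filter on low counts, 1 with limma on log2(TPM + 1), 1 with only the compared groups in the fit and 1 with the trend in transcript length removed. It ranged over 0 to 5 when 1 library was left out. With the length trend removed 56 genes passed and 35.7% of them were higher, against 21.7%. With the replicate number as a block the number was 0 (13 genes in all), Insig1 stood at 0.45 (adjusted p = 0.0682) and Abca1 at -0.60 (adjusted p = 0.109). Deviations of libraries with the same number from their group means correlated at 0.018 to 0.204 across the tissues (9 pairs), against -0.181 to 0.033 for different numbers (18 pairs), and at -0.172 to 0.238 within nigra. Within its group each nigra library correlated best with the striatum library of its own number, apart from nigra PBS 1 (0.018, against 0.033 for another number). Not every same-numbered pair exceeded 0.1, and with this exception the numbers were not treated as pairs. Contrasts between the tissues thus took the libraries as independent. The values across tissues are a hint from the data that numbers may be shared there. With the block the number called between the tissues was 26, against 22. For 6-OHDA against PBS in nigra the number was 0, 2 with DESeq2, and 0 to 1 when 1 library was left out. Between the tissues in PBS mice it was 22 in the reported fit, with 20 to 27 under the other settings and 20 to 24 with 1 library left out. In the other 6 comparisons it was 0 under every alternative. Among the named values that were refitted, 2 turned in direction, both with limma on log2(TPM + 1). They were Fdft1 for 6-OHDA against PBS in nigra (-0.023) and Srebf2 between the tissues (0.009). Fdft1 between the tissues and in striatum was not among the refitted values. Of the remaining named values under the alternatives, 629 kept direction and side of the threshold, 37 lost the call and 9 gained one; the cause was not tested. With 3 libraries a group, a difference that missed the threshold is not shown to be absent.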
